A study of Mus musculus with 12 samples.

Results

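Antisense RNAs are noncoding transcripts annotated on the DNA strand opposite another gene. Those examined here carried the biotype antisense_RNA in a deposited gene table of mouse kidney and were selected on their level: 3 or more of 12 libraries had to show an FPKM (fragments per kilobase of gene, adjusted for sequencing depth) of 2 or more. The rule kept 125 of 2646 antisense_RNA genes, in a table of 52636 genes. They were chosen by the FPKM of all 12 libraries, so their level is a description. Of the 125, 30 reached 2 FPKM in all 12 libraries, 81 in libraries both with and without cisplatin, 29 only without cisplatin and 15 only with it. Members of the last 2 sets (44 in all) entered through the groups in which they were high, so for them a difference between libraries with and without cisplatin is largely set by the rule. Their values are given below as a description, with no p-value for that difference. Counts of members called between libraries with and without cisplatin are set beside all genes only for the 81. Leaving out the 44 is itself a cut on that difference, made for no other gene, so these shares are a description. The 81 needed 1 or more libraries on each side, whereas the rule needed 3. Some of the 81, such as Gm15318, Gm16685 and Gm15441, therefore also met the rule only through the side where they were high. Their number was not counted, and p-values of the 81 for that difference are not free of the rule. Just inside the rule, by the third highest of 12 values, were Gm37592 (2.0 FPKM), Gm15867 (2.01), Gm26944 (2.03) and Gm16010 (2.03). Just outside were Gm21057 (1.96 FPKM), A230083G16Rik (1.95), Gm17112 (1.92) and Gm28727 (1.86).

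As background, an antisense RNA can begin near the start of its neighbour and run away from it, run into the end of its neighbour, or lie wholly within it. Some are made from a shared promoter, some act on the chromatin or the RNA of the neighbour, and for most no function is known. In kidney, several lie beside genes for transcription factors of the tubule and its embryonic precursor, such as Hnf4a and the Hox clusters. Cisplatin is a platinum drug whose main dose-limiting injury is to the proximal tubule, and PCN is a steroid that activates the mouse pregnane X receptor, a nuclear receptor that induces genes of drug metabolism.

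The mice were male wild-type C57BL/6 of 8 weeks, and each of 4 groups had 3 kidney libraries. Control mice had corn oil and saline, PCN mice had 40 mg/kg PCN daily and saline, cisplatin mice had corn oil and 1 intraperitoneal dose of 20 mg/kg cisplatin, and cisplatin+PCN mice (titled CISPCN) had both agents. Daily oil or PCN began 4 days ahead of cisplatin and went on for 3 days afterwards, and kidneys were taken 4 days after cisplatin. The treatment text also lists the cisplatin group among the mice pretreated with PCN, against its own description of the groups, and the groups here follow the titles. Nothing says outright that the libraries of a group came from separate mice, so each p-value reflects spread among libraries, which may be technical. The files hold whole kidney, in which fewer cells of a type and less RNA per cell cannot be told apart.

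Each library held between 18914607 and 26530485 reads within genes, and 1 FPKM stood for 18.7 to 27.2 reads per kilobase of gene. The first principal component of all tested genes held 80.2% of the variance. On it, control and PCN libraries lay from -44.9 to -42.1, cisplatin libraries from 51.2 to 62.6, and cisplatin+PCN libraries 1, 2 and 3 at 21.9, 40.7 and 29.3. Of 5 proximal tubule markers (Slc34a1, Lrp2, Cubn, Slc5a2, Slc22a6) the summed FPKM was 1597 to 1681 in control, 1551 to 1642 in PCN, 120 to 179 in cisplatin and 188 to 530 in cisplatin+PCN. The 5 erythroid markers summed to 318 to 1187 FPKM in control, 337 to 543 in PCN, 0.472 to 6.94 in cisplatin and 0.198 to 0.638 in cisplatin+PCN. The 4 neutrophil markers summed to 2.55 to 3.77, 0.862 to 1.83, 21.4 to 33.9 and 4.53 to 28.4 FPKM in the same order. The 3 distal convoluted tubule markers summed to 76.3 to 110 FPKM in control, 72.3 to 100 in PCN, 8.09 to 12.5 in cisplatin and 19.4 to 25.4 in cisplatin+PCN. The 5 adipocyte markers varied within groups, from 16.9 to 78.5 FPKM in control and from 4.35 to 145 in PCN, with library 1 the highest in both, and from 28.7 to 43.5 and 17.2 to 43.9 in the other 2 groups. Skeletal muscle markers summed to at most 0.384 FPKM and adrenal cortex markers to at most 1.06 in any library. The part of these marker shifts in the antisense results was not tested.

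The 125 antisense RNAs were low in level. Their mean FPKM over 12 libraries had a median of 2.40, and 25 averaged at least 5 FPKM, of which 7 averaged at least 10. Gene length ranged from 274 to 6821 bases with a median of 902. The mean reads behind them per library ran from 10.4 (Gm15867) to 4361 (Gm19950), with a median of 66.8. Chromosomes 11, 2 and 7 carried the most, with 15, 13 and 12.

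For each antisense RNA the protein-coding gene of the opposite strand that overlapped it most, or else began within 5 kb of its start, was taken as its partner. In 42 of 125 (33.6%) the 2 genes overlapped at their 5′ ends (head-to-head), against 20.1% of the 2646 antisense_RNA genes in the table. Another 25 (20.0%, against 13.7%) overlapped at their 3′ ends (tail-to-tail), 36 (28.8%, against 53.9%) lay inside the partner, and 7 spanned it. A further 11 had a near partner without overlap, and 4 had none. The 5′ ends of the pair lay within 1000 bases of each other for 31 antisense RNAs (24.8%, against 14.3% of all 2646).

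No source used here states whether the libraries keep the strand of the RNA. If they do not, reads from an antisense RNA and from the gene opposite it cannot be told apart where both have exons. Of 472 genes with every exonic base under exons of the opposite strand, 465 were listed at 0 in all 12 libraries, and 1.48% were above 0 in any. Of 41681 genes with no such base, 54.2% were above 0. Among antisense_RNA genes, 68 of 70 wholly overlapped ones were listed at 0, while 804 of 1094 without overlap (73.5%) were above 0. Genes whose exons were wholly shared with the opposite strand were thus nearly all listed at 0 in these libraries. Of the 120 members with the same coordinates in the annotation, 38 had no exonic base under an opposite exon and 7 had over 50%, and the median was 9.50%. Exons that lie in introns of the partner are a separate matter: 43 members had over 50% of their exonic bases there, and unspliced partner RNA in such bases cannot be told from the antisense RNA without strand.

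**Figure D1:**
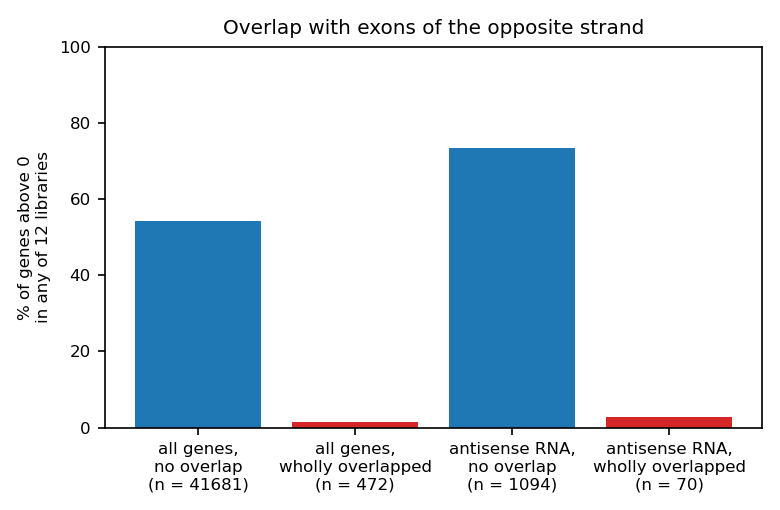
Share of genes (y axis, percent) with a value above 0 in any of 12 libraries, for all genes and for antisense_RNA genes with no exonic base (blue) or every exonic base (red) under exons of the opposite strand. Wholly overlapped genes were above 0 in 1.48% of 472 and 2.86% of 70 cases, against 54.2% and 73.5% of genes without overlap.

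Cisplatin against control was the widest contrast. Of the 81 antisense RNAs that reached 2 FPKM both with and without cisplatin, 15 rose and 34 fell with cisplatin (limma on log2(FPKM + 1), Benjamini-Hochberg adjusted p under 0.05 over all 13540 tested genes), or 60.5%. The background was 63.9% of all tested genes, 32.0% higher and 31.9% lower. The 81 leave out members that reached 2 FPKM only with or only without cisplatin, a cut that the background genes did not have. The 2 shares are therefore not of like sets, and neither likeness nor difference is read from them. The median change of the 81 was -0.22 on the log2 scale, against 0.01 over all genes. Of all 125, 29 rose and 62 fell (72.8%). Of these, 14 risers are among the 15 that reached 2 FPKM only with cisplatin and 28 fallers among the 29 that did so only without it, so the count of 125 is not read against the background. Of the 49 calls among the 81, 34 were made again without each library in turn and under each other setting in which they were tested.

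**Figure D2:**
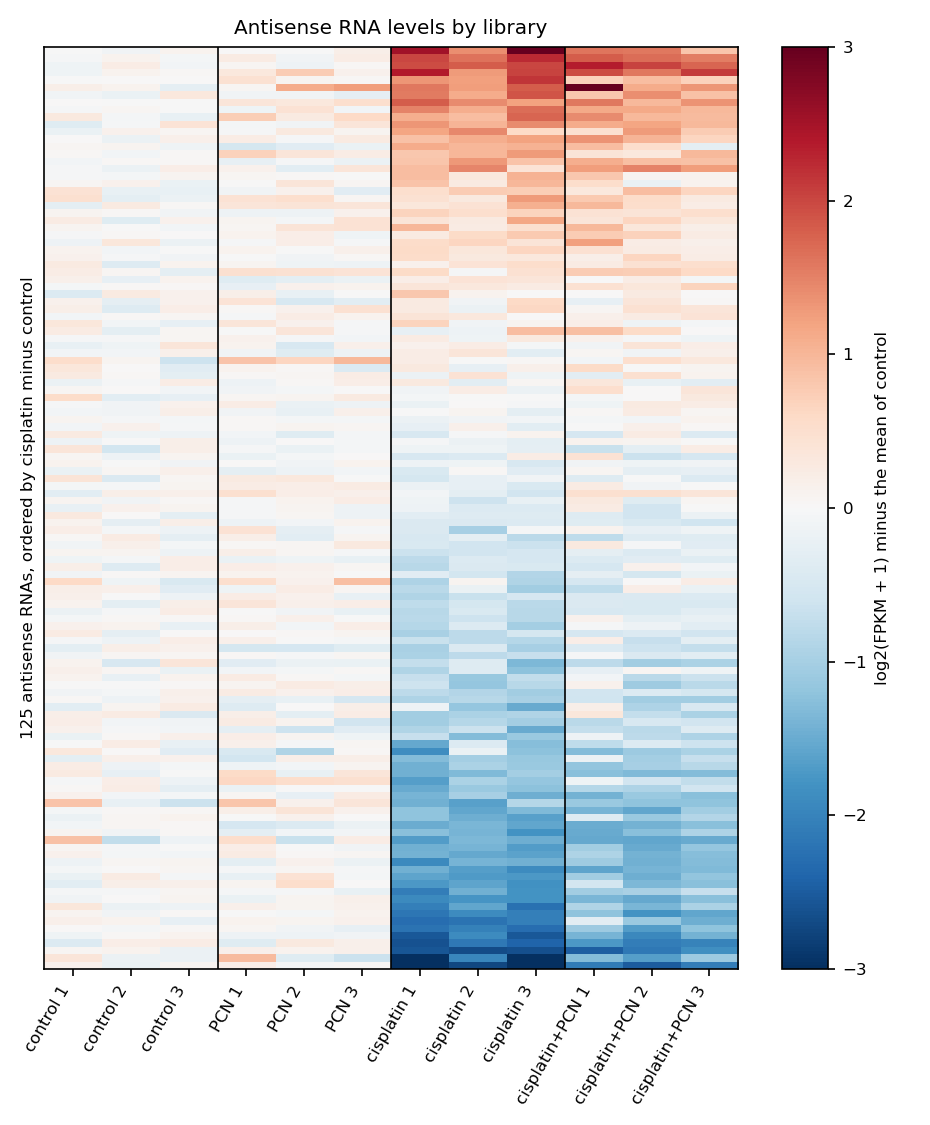
Level of each of 125 antisense RNAs (rows, ordered by the cisplatin minus control difference) in 12 libraries (columns), as log2(FPKM + 1) minus the mean of the 3 control libraries; colours saturate at 3 in each direction. Control and PCN columns are pale, the 3 cisplatin columns hold 29 called rises at the top and 62 called falls at the bottom, and cisplatin+PCN columns are paler than cisplatin in many rows.

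Of all 125, the largest fall in size was that of 3110045C21Rik, at chromosome 1, 169969409 to 169972396, plus strand. It stood at 12.5, 9.62 and 11.9 FPKM in control and 13.1, 11 and 11.5 in PCN. With cisplatin it stood at 0.366, 0.839 and 0.194 FPKM, and with cisplatin+PCN at 1.86, 1.18 and 1.91. The 4 groups separate into 2 high and 2 low, and the cisplatin libraries lay under each cisplatin+PCN library. The cisplatin minus control difference was -3.09 on the log2 scale (SE 0.17, n = 3 against 3). It reached 2 FPKM only without cisplatin, so the rule chose it through the groups in which it was high. Its partner is Ddr2, a receptor tyrosine kinase for collagen, which meets it tail-to-tail. Ddr2 averaged 1.64 ± 0.185 FPKM (SD, n = 3) in control and 1.73 ± 0.294 in cisplatin (change 0.05, adjusted p = 0.711).

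Antisense RNAs beside transcription factors of the tubule were among the large falls. Hnf4aos (chromosome 2, 163493807 to 163541720, minus strand) lies head-to-head with Hnf4a, the nuclear receptor that sets much of the proximal tubule programme. It stood at 17.8, 17.2 and 13.2 FPKM in control, 17.1, 16.9 and 17.6 in PCN, 2.5, 2.68 and 3.12 in cisplatin and 12.6, 6.79 and 5.14 in cisplatin+PCN. The cisplatin group did not overlap the other 3, and cisplatin+PCN library 1 was near the lowest control library. With cisplatin it fell by 2.17 (log2, SE 0.23, adjusted p = 1.30e-05). Hnf4a itself went from 212 ± 10.6 to 104 ± 10.9 FPKM (log2 change -1.03, adjusted p = 0.00321). The antisense RNA thus fell by more than its partner: the log2 ratio of the 2 changed by -1.15 (limma on 202 antisense and partner pairs, adjusted p = 0.000315).

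Hoxb5os (chromosome 11, 96291024 to 96306910, minus strand) spans Hoxb6, a patterning gene of the Hoxb cluster. It stood at 23.1, 23.1 and 24.9 FPKM in control and 23.0, 23.0 and 20.3 in PCN. With cisplatin it stood at 4.85, 8.09 and 6.12 FPKM, and with cisplatin+PCN at 11, 11.6 and 14.2. The cisplatin+PCN group lay between cisplatin and the 6 libraries without cisplatin, overlapping neither. It fell by 1.77 with cisplatin (SE 0.14, adjusted p = 1.87e-06), while Hoxb6 went from 20.9 ± 0.762 to 22.6 ± 0.190 FPKM (change 0.11, adjusted p = 0.135).

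These 2 belong to a list of 20 noncoding RNAs named for transcription factor loci of the kidney, of which 13 were in the table and 8 were tested. Of those 8, 7 fell with cisplatin and none rose, with 31.9% of all genes lower as the background. The falls of Hoxb3os (-0.37) and Emx2os (-0.28) were small. Emx2os reached the tested level mainly without cisplatin, so the count is a description. Mean FPKM in control and cisplatin of those not tested was 0.142 and 0.336 for Wt1os and 0.236 and 0.397 for Hoxa11os. It was 0.399 and 0.504 for Hoxaas3, 0.178 and 0.193 for Hoxaas2, and 0.900 and 0.837 for Foxd2os. Besides the 2 above, Lhx1os went from 25.1 ± 0.245 to a mean of 14.6 FPKM (log2 change -0.76, adjusted p = 0.00213). The member that did not pass was Hoxd3os1, at 1.93 ± 0.338 FPKM in control and 1.60 ± 0.217 in cisplatin (change -0.17, adjusted p = 0.153). Summed proximal tubule, distal convoluted tubule and erythroid markers also fell in the cisplatin libraries, and neutrophil markers rose, as given above. A link to the listed RNAs was not tested.

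Other large falls lay beside genes of varied function. Gm15962, tail-to-tail with Keg1, a gene named for its expression in kidney, went from 10.9 ± 2.75 FPKM in control to 0.885 ± 0.992 in cisplatin (change -2.76, adjusted p = 0.000175). Keg1 fell as well, from 308 ± 19.5 to 27.8 ± 26.2 FPKM (change -3.80, adjusted p = 4.74e-05). The added 1 shrinks the change of the lower gene, so the 2 changes are not ranked. Gm15962 has 55.9% of its exonic bases under opposite exons. Gm15848, tail-to-tail with Fcamr, an Fc receptor for IgA and IgM, went from 7.04 ± 1.84 to 0.515 ± 0.241 FPKM (change -2.39), and Fcamr fell by 2.87. Gm15343 went from 5.91 ± 0.711 to 0.115 ± 0.0473 FPKM, a difference of -2.63 on the log2 scale. Both Gm15848 and Gm15343 reached 2 FPKM only without cisplatin. Gm13111 begins near Prdm16, a transcription factor gene known from brown fat, and has no exonic base under it. It went from 11.9 ± 1.03 to 1.63 ± 0.746 FPKM (change -2.33, adjusted p = 1.50e-06), while Prdm16 changed by -0.32. Gm15318, tail-to-tail with the trefoil peptide gene Tff1, went from 6.95 ± 0.302 to 0.758 ± 0.165 FPKM (change -2.18). Too few libraries with cisplatin reached 2 FPKM to meet the rule, so Gm15318 was chosen through libraries without cisplatin.

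Among the antisense RNAs higher with cisplatin, Slc6a19os had the largest difference in size. It met the 2 FPKM rule only through libraries with cisplatin, so its values are a description. It lies at chromosome 13, 73699826 to 73709853, plus strand, head-to-head with Slc6a19, the brush border transporter of neutral amino acids. Its level was 0.129, 0.0529 and 0.216 FPKM in control and 0.132, 0.123 and 0.279 in PCN. With cisplatin it was 5.45, 1.96 and 8.52 FPKM, and with cisplatin+PCN 2.45, 2.39 and 1.0. All 6 libraries with cisplatin were above all 6 without it, and the cisplatin libraries differed among themselves by more than the means of the last 2 groups. The cisplatin minus control difference was 2.32 on the log2 scale (SE 0.35). Slc6a19 moved the other way, from 58.6 ± 5.38 to 29.0 ± 6.64 FPKM (change -1.01, adjusted p = 0.00381). No exonic base of Slc6a19os lies under an opposite exon, and 25.6% lie in introns of Slc6a19.

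Gm14964, inside the neurexin gene Nrxn2 (chromosome 19, 6530711 to 6532011, minus strand), was expressed in all groups. It stood at 4.36, 4.90 and 4.30 FPKM in control, 5.52, 4.15 and 5.48 in PCN, 21.1, 16.2 and 24.9 in cisplatin and 18.4, 16.7 and 15.0 in cisplatin+PCN. The libraries with cisplatin did not overlap those without. It rose by 1.96 (SE 0.14, adjusted p = 9.96e-07), and Nrxn2, at 0.692 ± 0.111 FPKM in control, rose by 0.86 (adjusted p = 2.27e-05). Of its exonic bases 72.8% lie in introns of Nrxn2.

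Gm16685 (chromosome 3, 7612705 to 7690001, plus strand) lies head-to-head with Il7, the gene of a cytokine for lymphocyte survival. Its levels were 1.51, 2.20 and 1.63 FPKM in control, 1.89, 1.47 and 1.83 in PCN, 9.79, 8.78 and 10.1 in cisplatin and 13.1, 10.4 and 8.21 in cisplatin+PCN. The cisplatin minus control difference was 1.93 on the log2 scale (SE 0.14). Without cisplatin only control library 2 reached 2 FPKM, so the rule chose Gm16685 through libraries with cisplatin and its values are a description. It averaged 10.5 ± 2.43 FPKM with both agents against 9.57 ± 0.705 with cisplatin. Il7 was below the level tested, at 0.174 ± 0.00409 FPKM in control and 0.560 ± 0.0877 in cisplatin.

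Hotairm1 is best known from myeloid differentiation. It stood at 6.00, 6.50 and 6.59 FPKM in control, 5.16, 6.16 and 5.51 in PCN, 12.1, 17.0 and 12.3 in cisplatin and 14.7, 12.7 and 12.5 in cisplatin+PCN. It rose by 0.99 (SE 0.12, adjusted p = 3.17e-05) with cisplatin, and the groups with and without cisplatin did not overlap. Hotairm1 was the 1 member in a list of 34 widely studied long noncoding RNAs of any biotype, of which 30 were in the table and 17 tested. In that list 11 rose and 3 fell with cisplatin, against 32.0% and 31.9% of all genes. Mir17hg reached the tested level only with cisplatin and Airn only without it, so this count is a description. The small nucleolar RNA host genes Snhg15 (change 1.88, adjusted p = 1.44e-06) and Snhg5 (1.44, adjusted p = 3.71e-07) were among those that rose, and Neat1, the scaffold of paraspeckles, fell (-1.37, adjusted p = 0.00290).

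Gm15895 rose by less than its partner. It overlaps Il34, a ligand of the macrophage growth factor receptor, head-to-head over 287 bases. It went from 2.87 ± 0.519 to 6.68 ± 2.79 FPKM (change 0.93, adjusted p = 0.00568), while Il34 went from 7.14 ± 1.32 to 62.4 ± 9.73 (change 2.96, adjusted p = 3.88e-08). The log2 ratio of the 2 changed by -2.03 (adjusted p = 1.34e-05). Gm15441 spans Txnip, the inhibitor of thioredoxin, and has 36.2% of its exonic bases under opposite exons. It stood at 1.47, 1.33 and 0.800 FPKM in control, 1.28, 3.74 and 4.17 in PCN, 5.55, 4.16 and 6.64 in cisplatin, and 18.6, 3.70 and 4.46 in cisplatin+PCN. The cisplatin minus control difference was 1.55 (SE 0.48), and its call was lost without control library 3 or cisplatin library 3. Without cisplatin only PCN libraries 2 and 3 reached 2 FPKM, so the rule chose Gm15441 through libraries with cisplatin. PCN library 3 reached the level of the lowest cisplatin library, and library 1 of cisplatin+PCN stood far above the rest. Plet1os spans Plet1, a surface protein gene of epithelial progenitors, and differed by 1.52, with Plet1 up by 1.69 (adjusted p = 1.57e-05). Gm15890, beside the endoplasmic reticulum stress gene Herpud1, differed by 1.42, with Herpud1 at -0.13 (adjusted p = 0.705), and 69.5% of its exonic bases lie under opposite exons. Plet1os and Gm15890 reached 2 FPKM only with cisplatin.

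**Figure D3:**
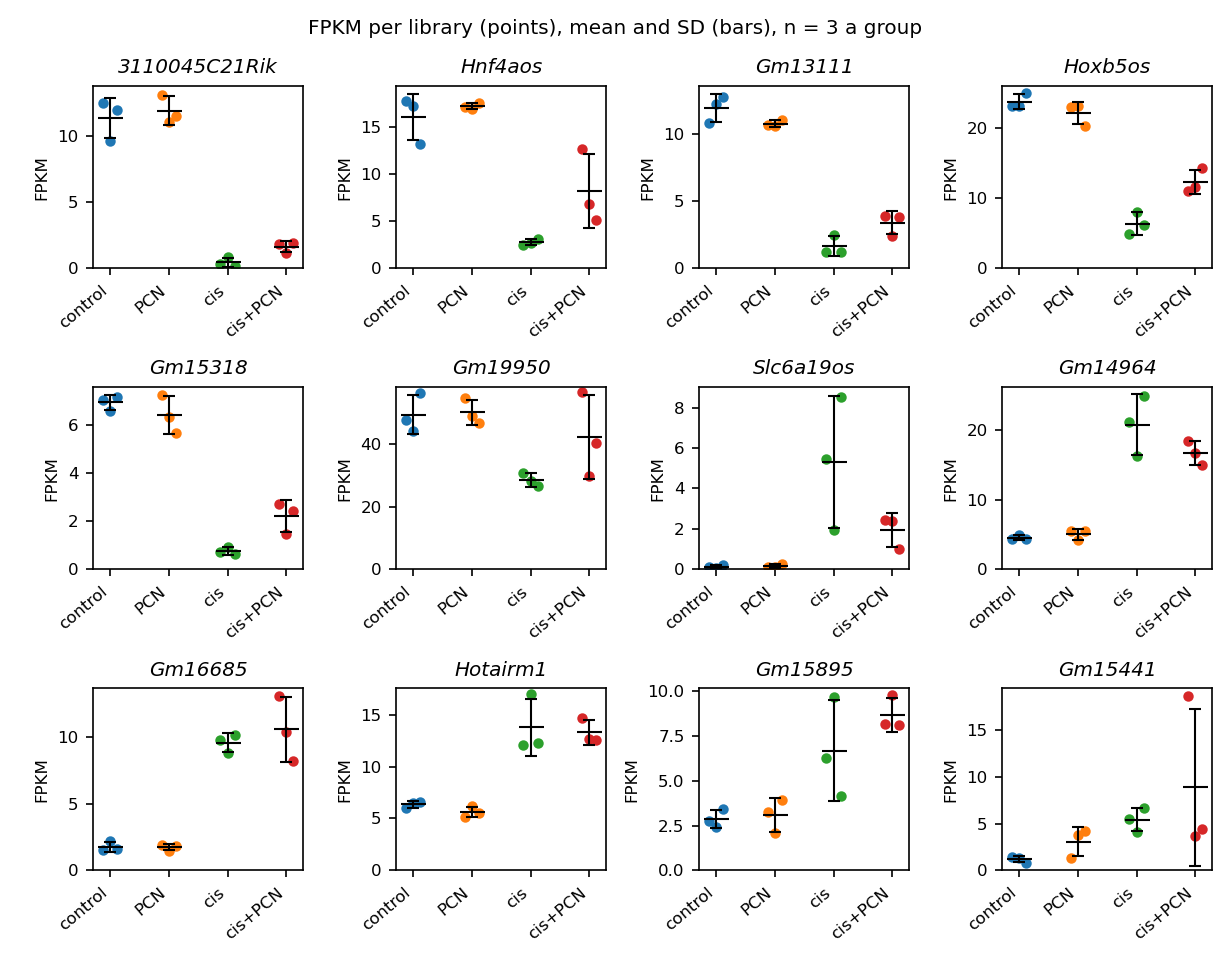
FPKM per library (points) with the mean and SD (bars) for 12 antisense RNAs in control, PCN, cisplatin (cis) and cisplatin+PCN (cis+PCN), n = 3 a group; each panel starts at 0 and has its own scale. Hnf4aos and Hoxb5os with both agents lie between the other groups, the 2 cisplatin groups overlap for Gm16685 and Hotairm1, and 1 cisplatin+PCN library of Gm15441 stands at 18.6 FPKM.

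The most abundant antisense RNA was Gm19950, at chromosome 7, 119607681 to 119643469, minus strand. All its exonic bases lie in introns of Acsm1, a mitochondrial acyl-CoA synthetase. It stood at 47.8, 44.1 and 56.4 FPKM in control, 54.7, 49.1 and 46.8 in PCN, 30.8, 28.2 and 26.5 in cisplatin and 56.7, 29.9 and 40.3 in cisplatin+PCN. The cisplatin group lay under control and PCN, and cisplatin+PCN ran from within the cisplatin range to just above the highest control library. It fell by 0.77 with cisplatin (SE 0.18, adjusted p = 0.00373), far less than Acsm1, which went from 80.3 ± 5.30 to 13.1 ± 0.820 FPKM (change -2.53, adjusted p = 9.78e-08). Gm45792, also within Acsm1 introns, went from 11.5 ± 1.53 to 5.94 ± 1.13 FPKM (change -0.85, adjusted p = 0.00220). The antisense to Acsm1 log2 ratio rose by 1.76 (adjusted p = 4.41e-06) for Gm19950 and by 1.67 (8.01e-06) for Gm45792. 0610005C13Rik, head-to-head with the amino acid transaminase gene Bcat2, was next in level and went from 30.3 ± 3.12 to 10.7 ± 1.76 FPKM (change -1.43, adjusted p = 2.77e-05), with Bcat2 at -1.02. In 34 of 125 the cisplatin change did not pass. Among these, Gm4285 stood at 8.66 ± 1.41 and 8.86 ± 2.01 FPKM (change 0.02, adjusted p = 0.940) and Brip1os at 7.73 ± 0.755 and 7.01 ± 1.47 (change -0.14, adjusted p = 0.309).

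Of the 125, 110 had a partner that was also tested, 71 of them among the 81 above. With cisplatin, both genes rose in 8 of the 71 pairs and both fell in 20. In 8 pairs (11.3%) the antisense RNA fell and the partner rose, against 8.42% of all 202 pairs tested, and in 0 the reverse, against 1.98%. The antisense to partner ratio changed in 36 of the 71, 12 higher and 24 lower (50.7%), against 49.5% of the 202 pairs (17.8% higher and 31.7% lower). By layout, the antisense RNA fell while the partner rose in 4 of 13 tail-to-tail pairs of the 71, 3 of 24 head-to-head, 0 of 22 inside and 1 of 9 near. The same shares over all pairs tested were 9 of 37 tail-to-tail (24.3%), 5 of 73 head-to-head (6.85%), 1 of 69 inside (1.45%) and 2 of 17 near (11.8%). The 71 pairs are part of the 202, so the 2 sets are not separate observations. Pairs of the 125 make up 22 of the 37 tail-to-tail pairs and 8 of the 9. The difference between layouts was not tested. Over all 110 pairs, 14 had a falling antisense RNA and a rising partner and 4 the reverse. Of these, 6 and all 4 were of antisense RNAs that reached 2 FPKM only without or only with cisplatin. Across the 110 pairs, which share libraries and are not replicates, Pearson's r of the 2 changes was 0.41. Antisense FPKM exceeded partner FPKM, both per length, in 43 of 121 pairs in control and 34 in cisplatin.

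The widest opposite changes were those of Slc6a19os, above, and of 4 antisense RNAs that fell. 1700113A16Rik, tail-to-tail with the transcription factor gene Mef2d, stood at 3.17, 3.52 and 3.76 FPKM in control and 0.190, 0.316 and 0.302 in cisplatin. Mef2d stood at 9.13, 8.89 and 8.34 FPKM in control and 22.2, 17.4 and 25.2 in cisplatin. Neither gene's groups overlapped, and the log2 ratio differed by -3.01. Under opposite exons lie 48.5% of the antisense RNA's exonic bases. Gm15638 differed by -2.03 and Plcxd2, a phospholipase C-like gene, by 0.78 (ratio -2.81), and none of its exonic bases is under an opposite exon. 4933431E20Rik fell by 0.76 while Eps8l3, of a family of actin regulators, rose by 1.14 (ratio -1.90, adjusted p = 1.80e-06). 1810034E14Rik, wholly in introns of the phosphatase gene Cdc14b, differed by -1.66 and Cdc14b by 0.29 (ratio -1.95). Of these 4, 4933431E20Rik reached 2 FPKM both with and without cisplatin and the other 3 only without it. In the other direction, Gm15879 fell by 1.03 and Dnase1, a secreted nuclease, by 3.19, so the ratio rose by 2.16 (adjusted p = 5.34e-05). The added 1 shrinks changes of low genes, so the size of this ratio change may depend on it.

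**Figure D4:**
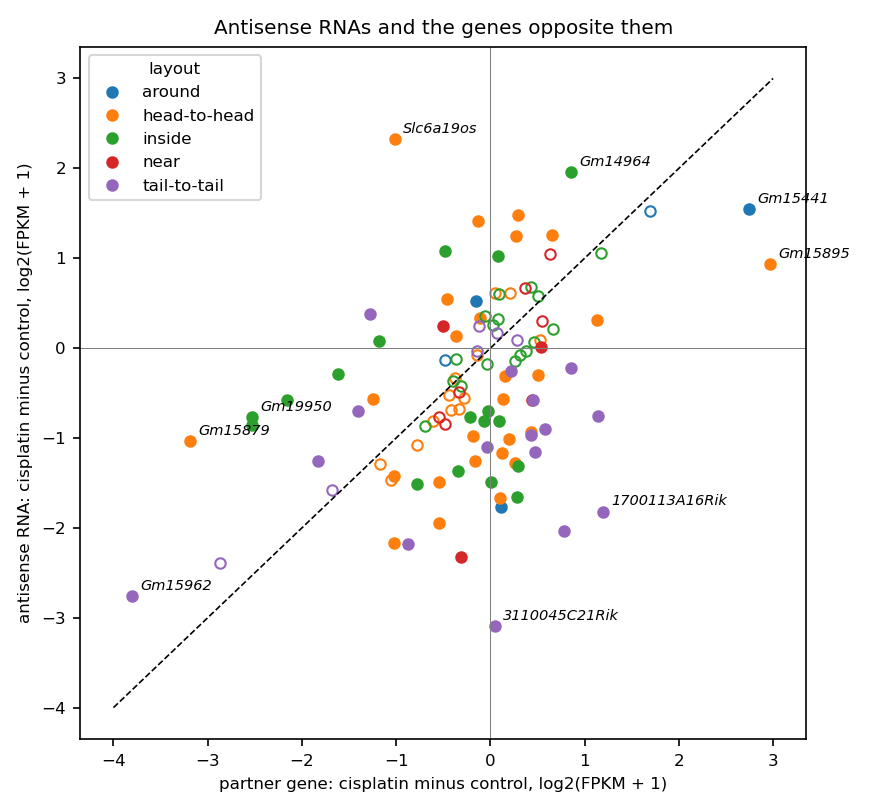
Cisplatin minus control change in log2(FPKM + 1) of 110 antisense RNAs (y axis) against that of the protein-coding partner (x axis), coloured by layout; filled points had a called change in the antisense to partner ratio (66), open points did not (44), and the dashed line marks equal change. Slc6a19os lies high with a lower partner, and 1700113A16Rik and 3110045C21Rik lie far below the line.

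Promoter windows of RefSeq (250 bases before to 50 after the start, GRCm38.p6) matched 55 of the 125 by gene, 44 of them within 500 bases of the table's start. They were searched on both strands for 5 motifs fixed with the design. The box known as CCAAT was in 38.2% of the 55 windows and in 37.4% of all 32851. The TATA box, searched as TATAAA, was in 10.9% and 13.6%, and the GC box, searched as GGGCGG, in 38.2% and 35.7%. The E-box, searched as CACGTG, was in 16.4% of member windows and 7.15% of all, and the AP-1 motif, searched as TGANTCA, in 7.27% and 7.81%. The AP-1 letters were in 3 of 11 windows of antisense RNAs that rose and in 1 of 29 that fell, and those of the CCAAT box in 2 of 11 and 13 of 29. For the GC box these were 4 of 11 and 9 of 29, for the E-box 1 and 5, and for the TATA box 0 and 3. None of these splits was tested. A core form of the HNF4 site, added after seeing the data, was in 0 of the 55 windows, that of Hnf4aos included, and in 0.475% of all. To show these letters in members that differed widely with cisplatin, 6 windows follow: the 3 called higher and the 3 called lower with the largest changes among those whose window lies within 500 bases of the table's start. That limit leaves out Plet1os and Gm15848, and Gm14964, Gm16685, Gm20703, Gm15441, Gm15962 and Gm13111, among others, had no matched window. The sequences run 5′ to 3′ on the gene's strand, with matches to any of the 5 motifs on either strand in capitals. Slc6a19os (chr13:73699705-73700004, plus strand) has 2 AP-1 matches, Gm15867 (chr1:192854678-192854977, plus strand) has 1 with 1 GC box, and 9530034E10Rik (chr4:117974784-117975083, plus strand) has 1 GC box and no AP-1 match. 3110045C21Rik (chr1:169969159-169969458, plus strand) has 3 CCAAT boxes, 3 GC boxes and 1 E-box. Gm15343 (chr10:76570483-76570782, minus strand) has 2 CCAAT boxes, and Gm15318 (chr17:31152502-31152801, plus strand) has 1 and 1 TATA box.
Slc6a19os: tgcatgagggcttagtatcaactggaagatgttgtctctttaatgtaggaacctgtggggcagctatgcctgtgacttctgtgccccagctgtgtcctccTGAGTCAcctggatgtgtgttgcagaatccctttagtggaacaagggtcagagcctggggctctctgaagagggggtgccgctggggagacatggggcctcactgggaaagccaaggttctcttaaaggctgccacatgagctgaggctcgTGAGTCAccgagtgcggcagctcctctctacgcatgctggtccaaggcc
Gm15867: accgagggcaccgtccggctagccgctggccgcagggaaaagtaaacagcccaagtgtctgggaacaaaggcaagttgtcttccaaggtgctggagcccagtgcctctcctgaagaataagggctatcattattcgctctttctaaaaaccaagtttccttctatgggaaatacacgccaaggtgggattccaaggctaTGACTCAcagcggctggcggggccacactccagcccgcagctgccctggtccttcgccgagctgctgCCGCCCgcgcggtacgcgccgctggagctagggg
9530034E10Rik: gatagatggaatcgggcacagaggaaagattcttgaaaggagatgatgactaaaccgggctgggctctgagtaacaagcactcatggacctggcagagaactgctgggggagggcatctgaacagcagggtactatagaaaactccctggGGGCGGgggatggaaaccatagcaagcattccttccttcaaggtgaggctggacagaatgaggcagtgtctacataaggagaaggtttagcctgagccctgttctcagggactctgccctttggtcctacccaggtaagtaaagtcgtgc
3110045C21Rik: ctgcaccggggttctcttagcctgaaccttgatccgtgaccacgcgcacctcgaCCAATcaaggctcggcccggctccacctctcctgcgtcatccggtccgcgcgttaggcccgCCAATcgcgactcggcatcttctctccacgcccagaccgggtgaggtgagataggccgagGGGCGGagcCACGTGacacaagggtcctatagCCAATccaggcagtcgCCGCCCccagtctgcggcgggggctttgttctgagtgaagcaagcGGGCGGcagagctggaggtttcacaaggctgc
Gm15343: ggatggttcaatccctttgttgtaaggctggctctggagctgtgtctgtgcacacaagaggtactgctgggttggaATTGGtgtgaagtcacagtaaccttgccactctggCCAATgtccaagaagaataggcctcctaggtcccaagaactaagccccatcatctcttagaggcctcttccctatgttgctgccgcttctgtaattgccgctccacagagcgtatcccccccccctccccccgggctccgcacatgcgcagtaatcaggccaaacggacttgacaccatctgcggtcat
Gm15318: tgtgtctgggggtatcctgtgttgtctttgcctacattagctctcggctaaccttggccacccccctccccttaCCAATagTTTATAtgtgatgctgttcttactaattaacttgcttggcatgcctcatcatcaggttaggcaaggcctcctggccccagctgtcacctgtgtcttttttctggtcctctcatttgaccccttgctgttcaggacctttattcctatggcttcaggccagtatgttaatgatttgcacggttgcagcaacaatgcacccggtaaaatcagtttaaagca
Gm15867, beside Sertad4, rests on few reads: it stood at 0.122 ± 0.0137 FPKM in control and 2.19 ± 0.686 in cisplatin (difference 1.48). Slc6a19os, Gm15867 and 9530034E10Rik reached 2 FPKM only with cisplatin, and 3110045C21Rik and Gm15343 only without it. A match is a run of letters and was not tested as a binding site.

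PCN alone was compared with control to ask for an effect of the agonist in uninjured kidney. No antisense RNA passed (limma), with 0.0% of all genes called. At an unadjusted p under 0.05 there were 11 of 125 (8.80%), against 3.23% of all genes. By limma-voom on reads recovered from the FPKM 0 passed as well. Changes ran from -0.47 to 0.82 on the log2 scale. Gm15867 stood at 0.122 ± 0.0137 FPKM in control and 0.480 ± 0.104 with PCN, and Gm17201 at 7.04 ± 1.14 and 5.56 ± 0.452. Neither difference passed after adjustment (adjusted p = 1.0 for both).

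Cisplatin+PCN was compared with cisplatin to ask whether PCN treatment goes with a different level in injured kidney. In the fit of 12 libraries 21 antisense RNAs were higher and 1 was lower (17.6%), against 15.6% of all genes, 7.97% higher and 7.61% lower. In cisplatin against control 62 of the 125 fell and 29 rose, in part through the rule, while all genes split evenly. The split into higher and lower is therefore not read against all genes. Among 135 lincRNAs 28 were higher and 2 lower. In a limma fit of the 6 compared libraries alone, 0 of 125 passed, and over all 13540 genes that fit called 1. There 30 antisense RNAs (24.0%) had an unadjusted p under 0.05, against 22.9% of all genes. In the larger fit 6 passed without each library in turn. In 13 of the 21 that were higher, library 1 was the highest of the cisplatin+PCN libraries, and that library also lay closest to control on the first principal component. This comparison shares the cisplatin libraries with the one above, so the values of both are set side by side and not counted together.

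Of the 6, Hoxb5os was higher by 0.87 (SE 0.14, adjusted p = 0.00805), after a cisplatin change of -1.77. Gm15318 was higher by 0.86 (SE 0.14, adjusted p = 0.00805), at 0.704, 0.944 and 0.627 FPKM in cisplatin and 2.74, 1.48 and 2.44 with both agents, with a cisplatin change of -2.18. Hnf4aos was higher by 1.21 (SE 0.23, adjusted p = 0.0117), with Hnf4a at 0.36 (adjusted p = 0.315). 3110045C21Rik was higher by 0.87 (SE 0.17, adjusted p = 0.0118) and still far below control. 4933431E20Rik stood at 2.56, 2.80 and 2.80 FPKM in control, 1.11, 1.43 and 1.08 in cisplatin and 3.04, 2.03 and 2.21 with both agents, higher by 0.63 (SE 0.11, adjusted p = 0.00877). Its 2 groups with cisplatin did not overlap, and the group with both agents overlapped control. Gm15860, head-to-head with Bcl7a and named after its values were seen, was higher by 0.55 (SE 0.11, adjusted p = 0.0125). In the fit of the 6 libraries alone, the adjusted p was 0.117 for Hoxb5os, Gm15318 and 4933431E20Rik, 0.119 for 3110045C21Rik and 0.120 for Hnf4aos.

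The 1 that was lower was Gm14286, which has no partner. It stood at 2.69, 2.43 and 5.54 FPKM in cisplatin and 1.37, 1.78 and 1.36 with both agents, a difference of -0.80 (SE 0.21). It reached 2 FPKM in the 3 cisplatin libraries alone, so the rule chose it through that group. The call was lost without either of cisplatin libraries 1 and 3 or cisplatin+PCN libraries 1 and 3. Slc6a19os differed by -0.99 (SE 0.35), which did not pass (adjusted p = 0.0789). Gm16685 (0.11, adjusted p = 0.632), Hotairm1 (-0.04, 0.865) and Gm20703 (-0.02, 0.975) gave no call.

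The antisense to partner ratio differed between these groups in 14 of 110 pairs, 12 higher and 2 lower, against 8.91% of the 202 pairs tested (6.93% higher and 1.98% lower). The 110 are part of the 202, and 14 of the 18 calls among the 202 are theirs. For Gm15895 the ratio to Il34 was higher by 1.2 (adjusted p = 0.0145): the antisense RNA stood at 8.68 ± 0.950 FPKM with both agents, and Il34 at 36.1 ± 1.34, down from 62.4. For 0610040F04Rik, beside the transcriptional repressor gene Bhlhe40, the ratio was higher by 1.15 (adjusted p = 0.010), with Bhlhe40 lower by 0.97 on the log2 scale. For Gm15962 it was lower by 1.21, with Keg1 up by 2.63 on the log2 scale (adjusted p = 0.0103). Both lower ratios, those of Gm15962 and Gm15879, were lost when 0.1 or 0.5 was added to FPKM in place of 1. Without cisplatin library 3 none of the 12 higher ratios passed.

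The cisplatin effect within PCN-treated mice compares 2 groups that are not in the cisplatin against control comparison. Its spread was still fitted over all 12 libraries, and the 81 were chosen on all 12, so the 2 comparisons are not independent. Of the 81 antisense RNAs at 2 FPKM both with and without cisplatin, 11 rose and 19 fell in it (37.0%, against 46.9% of all genes, 23.5% higher and 23.4% lower). All 19 were among the 34 that fell with cisplatin alone, and 10 of the 11 were among the 15 that rose. Gm14964 rose by 1.55 (adjusted p = 1.11e-05) and Gm20703 by 1.48 (0.000779). Gm16685, which met the rule through libraries with cisplatin, differed by 2.06. 3110045C21Rik, Gm15343 and Gm15848, which reached 2 FPKM only without cisplatin, differed by -2.29, -2.28 and -1.96. Over all 125 there were 21 rises and 43 falls (51.2%), of which 10 and 24 were of antisense RNAs that reached 2 FPKM only with or only without cisplatin. Against control, mice with both agents had 13 of the 81 higher and 19 lower (39.5%, against 46.6% of all genes, 23.0% higher and 23.6% lower). Over all 125 these were 25 and 46 (56.8%), with 12 and 27 from the other 2 sets.

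The difference between the cisplatin effects with and without PCN, an interaction term, passed for no antisense RNA in limma, with 0.111% of all genes called, 0.0739% higher and 0.0369% lower. At an unadjusted p under 0.05 there were 24 (19.2%, against 19.3% of all genes), and limma-voom on recovered reads also called 0. The smallest adjusted p was 0.102, for Hoxb5os (interaction 0.97, SE 0.20) and Gm15318 (0.96, SE 0.20).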

How the data were processed

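The deposited table gives FPKM per gene for 12 kidney libraries, 3 in each of 4 groups taken from the titles. HISAT2 2.0.5, featureCounts 1.5.0-p3, DESeq2 1.16.1 and edgeR 3.18.1 are listed, without settings, in the submitters' processing notes, as is build mm8. Of the 52636 gene identifiers 49993 have the same coordinates in GENCODE M21 (GRCm38), as do 120 of the 125 members, so coordinates are read as GRCm38. Strandedness and the FPKM denominator are not given in the sources used here. FPKM times length gave whole reads within 0.01 reads for 100% of values above 0, so depth could be recovered.

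The members, lists, tests and alternatives were chosen with earlier results of these data known. The test was limma 3.58.1 (R 4.3.3), fitted to log2(FPKM + 1) with the variance trend along intensity, for the 13540 genes that reached 1 FPKM in 3 or more libraries; 4 group means were fitted at once. P-values are two-sided and adjusted over all these genes within a comparison, with a call at 0.05. The added 1 shrinks fold changes of low genes. All 125 members passed the filter. The antisense to partner ratio was tested by limma without trend on 202 pairs. Chi-square per gene between replicates was 4.65 to 71.5, above sampling noise. The scripts were tested on simulated data. By rule, named genes were the 12 most abundant members, those next to the expression threshold and members of 2 lists. The rule also took the widest opposite or ratio changes against the partner. Among members with groups that do not overlap, it took the largest called changes, up to 12 per direction for cisplatin and 6 for other comparisons. Lhx1os, Snhg15, Snhg5, Neat1, the other listed genes that are not members and Gm15860 were named after their values were seen. A part of what the rule names, and 1 motif searched, is not reported here.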

Additional observations from a re-analysis of the deposited data

How the results depend on the processing

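Of 2891 single-gene values under other settings, 2705 kept direction and side of the threshold, 186 kept direction and lost the call, and 0 reversed. For cisplatin against control, leaving out each library gave 21 to 30 higher and 56 to 63 lower. Limiting to a mean FPKM of at least 2, as filter or as member rule, gave 17 higher and 41 lower, 5 FPKM in 3 libraries 10 and 24, and 2 rules chosen after seeing the data gave 15 and 34 (2 FPKM both with and without cisplatin) and 3 and 3 (no exonic base in the partner or under opposite exons, 13 members). These take fewer members. The same 2 mean rules and the 5 FPKM rule gave 13 and 27, and 8 and 18, for the cisplatin effect within PCN, and 15 and 27, and 10 and 16, for both agents against control. The rule of 2 FPKM both with and without cisplatin gave 11 and 19, and 13 and 19, there. Leaving out each library gave 15 to 23 and 34 to 47, and 20 to 25 and 35 to 48.

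Cisplatin+PCN against cisplatin moved most. The 21 higher became 8 with no filter, 0 with the compared groups alone and 47 with array weights; the 1 lower became 0 with no filter, either mean rule, the 5 FPKM rule or the compared groups alone, and 17 with array weights. Leaving out each library gave 6 to 25 higher and 0 to 8 lower: 9 higher without cisplatin 1, 6 without cisplatin 3, 10 without cisplatin+PCN 1, 9 without cisplatin+PCN 3, and 8 lower without cisplatin 2. The interaction had 0 calls in either direction, 26 higher and 13 lower with array weights, and 0 to 10 and 0 to 2 without each library, with 10 and 2 without cisplatin 2 and 4 higher without cisplatin+PCN 2. For the ratio with cisplatin the ranges were 19 to 26 and 37 to 44. For the ratio of cisplatin+PCN to cisplatin they were 0 to 18 and 0 to 4 (4 higher without cisplatin 1, 6 without cisplatin+PCN 3), and pseudocounts of 0.1 and 0.5 gave 0 lower. The cause of these shifts was not tested. FPKM times gene length gave whole reads for 100% of values above 0. On these reads limma-voom with median-of-ratios scaling, added after seeing the data and after the planned version with TMM factors had been run and then replaced, gave 26 higher and 58 lower for cisplatin, and 18 and 1 for cisplatin+PCN against cisplatin. Over all genes it called 4298 higher and 4364 lower, and 1313 and 1155. The TMM version was replaced because edgeR was not admitted for a deposit without count columns, although both versions used the same recovered reads. The TMM version had given the same member counts for these comparisons, and it is not kept among the results.

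Between libraries of the same number, 4 of 18 correlations exceeded 0.1 (-0.281 to 0.366, against -0.401 to 0.328 for other numbers). Of 12 libraries, 8 correlated best with a library of their own number. Whether libraries pair by number was not tested. A replicate block gave 29 higher and 62 lower for cisplatin, 17 and 0 for cisplatin+PCN against cisplatin, and 1 lower ratio there. Near 2 FPKM a median-length member rests on few reads, which limits small differences.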
